A study of Homo sapiens with 18 samples.

Results

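The comparison set F2, a clone of G401 cells in which CRISPR/Cas9 disrupted both copies of RB1, against WT, the isogenic control cells that were edited at the AAVS1 safe harbour site and kept RB1. All cells of both groups received DMSO, the solvent of tazemetostat, for 11 days. G401 is an established line from a malignant rhabdoid tumour, a childhood cancer that lacks the chromatin remodelling subunit SMARCB1. Its members are the 3 F2 and 3 WT libraries with DMSO, 6 of the 18 libraries of the series, and every gene whose mean over those 6 libraries was at least 10 normalized counts. That rule kept 15130 of 55765 gene symbols and left 40635 untested. At the edge, C6orf3 lay just inside with a mean of 10.003 and RP11-277B15.2 just outside with 9.993, and 193 genes had means from 10 to 11. F2 is 1 clone, so loss of RB1 and other differences between a clone and the control cells cannot be told apart here. A second disrupted clone, E1, and the same 3 lines given tazemetostat at 10 µM, which blocks the histone methyltransferase EZH2, are used only where named.

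RB1 encodes the retinoblastoma protein, which binds E2F transcription factors and holds back the genes that carry a cell from G1 into S phase. Its relatives p107 (RBL1) and p130 (RBL2) work in the same way, and p130 with p107 also serves in the DREAM complex, which silences late cell cycle genes in resting cells. Cyclin-dependent kinases release E2F by phosphorylating these proteins. EZH2 is the catalytic subunit of Polycomb repressive complex 2, which keeps developmental genes silent, and SMARCB1-deficient tumours are known to depend on it.

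The WT libraries held 33838268 to 37952576 reads and the F2 libraries 25709489 to 32076573, so depth did not overlap between the groups. Mitochondrial transcripts took 4.09% to 4.57% of reads in WT and 5.02% to 5.49% in F2, another measure without overlap, whose part in the results was not tested. SMARCB1 had 0 reads in all 6 libraries, where up to 3 reads per library counted as the floor. A first principal component with 61.1% of the variance separated F2 from WT. A second with 18.6% set replicate 3 of both groups, at -19.41 and -24.36, apart from the other 4 libraries, which lay between 4.52 and 14.7. Leukocyte markers summed to 34.1 to 45.2 normalized counts per WT library and 23.1 to 30.7 per F2 library, with PTPRC, CD3D, CD3E and CD2 at 0 reads in all 6. Endothelial markers summed to 5.68 to 12.2 in WT and 4.10 to 5.19 in F2, and KDR and EMCN had 0 reads. The labels call the 3 libraries of a group biological triplicates and give no separate derivation of the cultures. P-values thus measure only the spread between libraries. In the limma fit this spread, and with it each SE, was pooled over the 6 groups of all 18 libraries.

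RB1 transcript, the targeted gene, was lower in F2 but still present. It measured 2828, 2687 and 2565 normalized counts in the WT libraries and 860.5, 803.9 and 851.8 in the F2 libraries. Every F2 library lay below every WT library, and the F2 mean was 31.1% of the WT mean. The log2 change was -1.68 ± 0.11 (SE) with a limma adjusted p of 5.5e-10. By exact permutation of the 6 libraries the two-sided p was 0.1, the lowest that groups of this size allow. These values are of transcript; the submitters report that the protein was absent from the clone by Western blot.

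The other RB and E2F family members and the MuvB core of DREAM differed little between F2 and WT. Of 20 listed genes, all tested, only RB1 passed the threshold used throughout, a limma adjusted p under 0.05 with a log2 change of at least 1 in size. Over all tested genes 0.839% passed it as higher in F2, 1.62% as lower and 2.46% in either direction. E2F1, an activating E2F and itself an E2F target, was at 1131, 1155 and 1136 in WT and 1167, 1197 and 1171 in F2, a log2 difference of 0.05 ± 0.07 with an adjusted p of 0.68. The F2 values of E2F1 were all above the WT values, but by a few percent. Without the fold limit, 3 of the 20 were higher at an adjusted p under 0.05. These were RBL1 (log2 difference 0.30, adjusted p 0.032), MYBL2 (0.34, 0.019), a MuvB partner, and FOXM1 (0.33, 0.00081), which drives G2/M genes. E2F5, a repressive E2F, had a log2 difference of -0.24 with an adjusted p of 0.042. Without the fold limit 8.69% of all tested genes were higher and 12.3% lower, so 3 higher and 2 lower of 20 is near the background.

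Across the transcriptome 127 genes rose and 245 fell in F2, and some moved by more than 8-fold. The median log2 change was 1.25 for the risen genes and -1.51 for the fallen ones, both past 1 in size because of the fold limit. Over all tested genes the median was -0.01. At least 8-fold lower were 43 genes and at least 8-fold higher 7, with genes at the floor in 1 group taken at their lower bound. Among the risen genes 22 had a WT mean under 10, and among the fallen 86 had an F2 mean under 10. These genes entered the test only through the group in which they were high, so a difference was built into their entry. In 9 of the 372 the 2 groups overlapped, and the threshold itself favours genes whose groups do not. On reads thinned to the depth of the smallest library, which removes the depth gap, 112 genes rose and 227 fell, and 84.4% of the 372 were among them. Without replicate 3 of both groups, the libraries set apart on the second component, 125 rose and 251 fell.

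**Figure D1:**
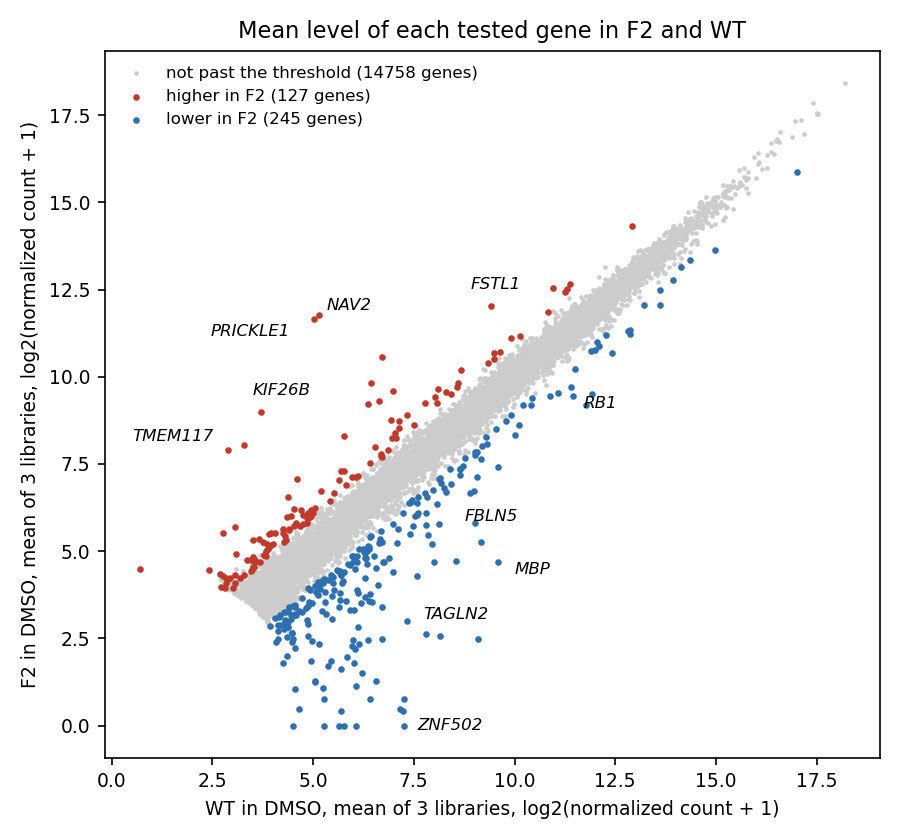
Mean of the 3 WT libraries (x axis) and of the 3 F2 libraries (y axis) for each of the 15130 tested genes with DMSO, both as log2(normalized count + 1). Red points are the 127 genes that rose in F2, blue points the 245 that fell, grey points all others. Most genes lie along the diagonal, RB1 below it, and a row of blue points at the bottom edge marks genes with hardly any reads in F2.

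The largest rises were genes almost silent in WT that were abundant in F2. NAV2, which encodes a cytoskeleton-associated protein of growing neurites, was at 23.6, 33.0 and 37.9 in WT and 3031, 3041 and 3639 in F2. This is a 103-fold difference of means and a log2 change of 6.66 ± 0.26. PRICKLE1, a core component of the planar cell polarity pathway, was at 34.1, 29.2 and 39.8 in WT and 3681, 3374 and 3484 in F2. Its means differed 102-fold, with a log2 change of 6.65 ± 0.10. KIF26B, a kinesin family member linked to noncanonical WNT signalling, was at 8.74, 10.4 and 17.03 in WT and 455.9, 528.0 and 546.1 in F2, a log2 change of 5.34 ± 0.17. TMEM117, a membrane protein gene, was at 7.86, 5.66 and 5.68 in WT and 240.7, 244.8 and 231.8 in F2, a log2 change of 5.03 ± 0.13. NFIB, a nuclear factor I transcription factor of lung and brain development, was at 5.24, 5.66 and 15.1 in WT and 259.2, 221.0 and 307.0 in F2, a log2 change of 4.90 ± 0.28. In each of these 5 genes the highest WT library was far below the lowest F2 library. Groups that do not overlap were required of all 24 named rises and falls, so the lack of overlap is no further evidence.

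Other large rises started from genes that WT already expressed. FSTL1, a secreted glycoprotein of the follistatin-like family, was at 678.7, 703.1 and 669.0 in WT and 4468, 4166 and 3935 in F2, 6.13-fold higher with a log2 change of 2.61 ± 0.10. CLDN1, a tight junction claudin, was at 69.9, 74.5 and 99.4 in WT and 588.0, 589.2 and 611.6 in F2. FRZB, a secreted antagonist of WNT ligands, was at 109.2, 101.8 and 85.2 in WT and 577.8, 644.2 and 656.5 in F2. These 3 genes encode a secreted factor, a junction protein and a WNT antagonist, and their groups lay well apart, with log2 changes of 2.88 ± 0.16 for CLDN1 and 2.66 ± 0.26 for FRZB. OGFRL1 varied more within WT, at 182.6, 50.9 and 75.7, against 1552, 1572 and 1422 in F2, a log2 change of 4.07 ± 0.53. The remaining named rises were SRCRB4D, a scavenger receptor domain gene (3.40 ± 0.14), OSTN, which encodes the secreted peptide osteocrin (2.61 ± 0.25), and FAM129A (2.53 ± 0.10). All 12 had limma adjusted p of 1.5e-05 or less.

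The largest falls ended in near or complete loss of the transcript. ZNF502, a zinc finger gene, was at 165.1, 146.1 and 148.6 in WT and had 0 reads in each F2 library, at least 46.8-fold lower when F2 is set at 3 reads per library. HMCN1, which encodes the extracellular matrix protein hemicentin, was at 113.5, 136.7 and 200.6 in WT and had at most 1 read in an F2 library, at least 45.9-fold lower. RNF182, an E3 ubiquitin ligase gene, was at 150.2, 130.1 and 141.9 in WT with at most 1 read in an F2 library, at least 43.0-fold lower. All 3 were well measured in every WT library and at the floor in every F2 library. TAGLN2, the actin-binding protein transgelin-2, was at 317.1, 312.0 and 225.2 in WT and 9.22, 2.08 and 3.64 in F2, 1.75% of the WT mean. CCR1, a chemokine receptor, was at 223.6, 225.2 and 214.8 in WT and 6.15, 8.30 and 1.21 in F2. MBP, the myelin basic protein gene, was at 797.5, 822.8 and 694.6 in WT and 34.8, 20.8 and 19.4 in F2. Log2 changes of these last 3 genes were -5.75 ± 0.28 for TAGLN2, -5.40 ± 0.32 for CCR1 and -4.94 ± 0.14 for MBP. Their groups did not overlap, by the rule that chose the genes.

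The other 6 named falls were ERBB4, FBLN5, LIN28B, PCDH17, ADCYAP1 and COL1A2. ERBB4, a receptor tyrosine kinase for neuregulins, was at 106.6, 99.0 and 106.0 in WT and 6.15, 4.15 and 3.64 in F2, a log2 change of -4.24 ± 0.25. FBLN5, an elastic fibre protein, was at 516.2, 636.2 and 583.9 in WT and 41.0, 40.5 and 30.3 in F2, a log2 change of -3.93 ± 0.13. LIN28B, an RNA-binding protein that blocks let-7 maturation, was at 255.9, 261.1 and 243.2 in WT and 30.7, 22.8 and 20.6 in F2. LIN28B thus fell to 9.76% of the WT mean (log2 change -3.32 ± 0.23). PCDH17, a protocadherin, had a log2 change of -3.87 ± 0.46 and COL1A2, a chain of type I collagen, one of -3.31 ± 0.22. ADCYAP1, which encodes the neuropeptide PACAP, was at 406.2, 102.7 and 58.7 in WT and 45.1, 2.08 and 8.49 in F2. Its 3 WT libraries spanned a wide range, and its log2 change of -3.62 ± 0.89 (adjusted p 0.0065) was lost without WT replicate 1 (adjusted p 0.0567) and without F2 replicate 2 (adjusted p 0.051).

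**Figure D2:**
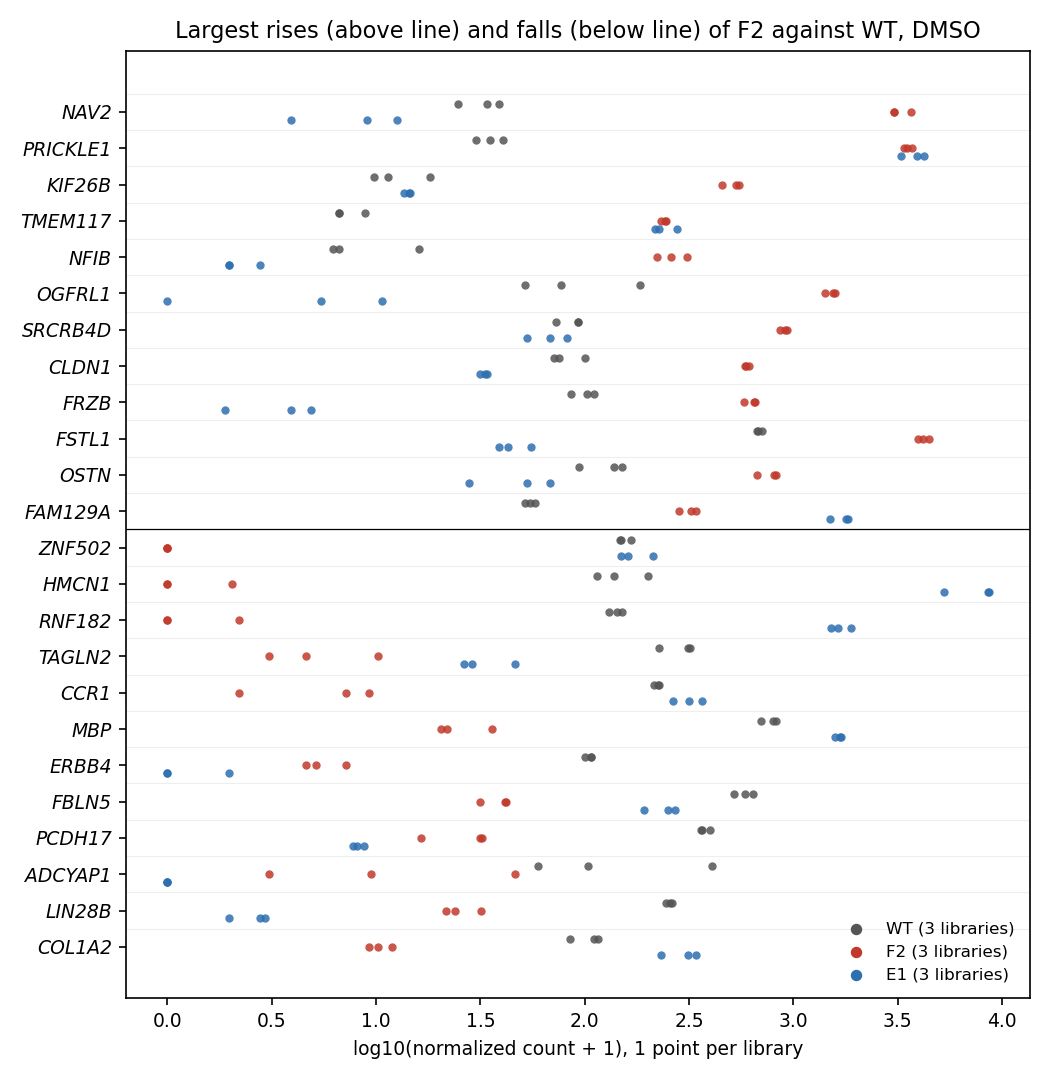
Values of the 12 largest rises (above the line) and 12 largest falls (below it) in each DMSO library as log10(normalized count + 1), with 3 WT, 3 F2 and 3 E1 libraries per gene. WT and F2 do not overlap in any row by the rule that chose the genes. E1 lies with F2 for PRICKLE1 and TMEM117, and far above both groups for HMCN1 and RNF182.

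The promoters of 4 of these genes differed in base composition. PRICKLE1 and TMEM117 are shown because E1 reached the same level for them, ZNF502 because it stayed silent in F2 with and without tazemetostat, and RNF182 because it was silent in F2 only with DMSO. Each run is the 250 bases before the start of the gene in RefSeq (GRCh38.p14), 5′ to 3′, with capitals for a match to an E2F-type motif, searched as TTTCCCGC, TTTGGCGC and TTTCGCGC on both strands.
PRICKLE1, chr12:42483616-42483865, minus strand: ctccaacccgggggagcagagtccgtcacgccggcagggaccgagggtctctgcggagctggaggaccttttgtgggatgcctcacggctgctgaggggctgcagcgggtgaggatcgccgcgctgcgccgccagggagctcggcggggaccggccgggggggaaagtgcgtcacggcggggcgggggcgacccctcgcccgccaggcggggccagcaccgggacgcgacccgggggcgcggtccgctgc
TMEM117, chr12:43835831-43836080, plus strand: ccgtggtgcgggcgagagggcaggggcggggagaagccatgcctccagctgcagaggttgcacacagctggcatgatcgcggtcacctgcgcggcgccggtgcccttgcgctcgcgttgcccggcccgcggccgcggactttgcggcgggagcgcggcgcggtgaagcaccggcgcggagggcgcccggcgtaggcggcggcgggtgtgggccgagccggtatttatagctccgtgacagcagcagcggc
ZNF502, chr3:44712410-44712659, plus strand: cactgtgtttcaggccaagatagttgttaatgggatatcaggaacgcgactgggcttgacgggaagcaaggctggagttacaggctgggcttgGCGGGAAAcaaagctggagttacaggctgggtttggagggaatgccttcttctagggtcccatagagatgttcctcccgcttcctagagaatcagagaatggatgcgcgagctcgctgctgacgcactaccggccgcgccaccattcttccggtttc
RNF182, chr6:13924196-13924445, plus strand: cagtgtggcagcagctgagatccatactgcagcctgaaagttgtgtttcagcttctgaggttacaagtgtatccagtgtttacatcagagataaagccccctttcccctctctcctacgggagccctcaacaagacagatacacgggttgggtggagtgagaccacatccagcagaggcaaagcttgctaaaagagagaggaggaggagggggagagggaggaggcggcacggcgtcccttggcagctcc
The observed number of CpG over that expected from base content was 0.882 for PRICKLE1, 1.088 for TMEM117, 0.697 for ZNF502 and 0.267 for RNF182. GC content was 77.2%, 74.8%, 55.2% and 55.2% in the same order. The match in ZNF502 was the only one among the 21 named genes with a promoter entry. Of the 10238 promoters found for tested genes 3.88% held a match. Only 67.7% of tested genes had a promoter entry, so the named genes are not compared with that share. In the listed G1/S and E2F target genes 15 of 44 promoters (34.1%) held a match. A match is a run of letters, not a measured binding site.

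In F2, 23 fallen genes had 3 reads or fewer in every library, although their WT means ran from 21.5 to 153. Of these 23, 16 exceeded 3 reads in every F2 library with tazemetostat, 5 stayed at or below 3 reads in all of them and 2 were mixed. PRICKLE2, the paralog of PRICKLE1, was at 68.1, 67.9 and 63.4 in WT and had 0 reads in each F2 library, at least 20.3-fold lower. With tazemetostat PRICKLE2 reached 2474, 2757 and 2680 in F2. PTGFRN, an immunoglobulin superfamily membrane protein, was at 28.8, 82.9 and 48.3 in WT with 0 reads in F2 under DMSO, and at 2127, 2091 and 2196 in F2 under tazemetostat. PLXNA2, a semaphorin receptor, was at 0, 0 and 3.64 in F2 with DMSO and at a mean of 1113 ± 33.1 (SD, n = 3) with tazemetostat. WT also had more of these transcripts with tazemetostat than with DMSO. Its means with the drug were 4193 ± 168 for PRICKLE2, 894.1 ± 83.8 for PTGFRN and 1995 ± 123 for PLXNA2, which was at 66.1 in WT with DMSO. Under the drug F2 was below WT for PRICKLE2 and PLXNA2 and above it for PTGFRN. These genes were thus at the floor in F2 only without the drug, unlike ZNF502, which had 0 reads in all 6 F2 libraries. ZNF732 and ZNF600, zinc finger genes too, had at most 1 and 2 reads in an F2 library with tazemetostat. C9orf64 and MNS1, picked after their values were seen, likewise had at most 1 read there. HTR2A, a serotonin receptor gene chosen after its values were seen, was the only risen gene at the floor in WT, with at most 2 reads there and 21.5, 20.8 and 21.8 in F2.

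WNT signalling and planar cell polarity genes moved in both directions, with 5 rising and 4 falling of 48 tested, out of 80 listed. The shares over all tested genes were 0.839% rising and 1.62% falling. This list and those below were written with earlier results of these data known. Their shares beside those of all tested genes are therefore description, not a test of the lists. The risen members were PRICKLE1, KIF26B, FRZB, WNT3 and WNT5A. WNT5A, a noncanonical ligand, was at 680.4, 625.8 and 644.4 in WT and 1409, 1238 and 1352 in F2, a log2 change of 1.03 ± 0.08, just past the fold limit. The fallen members were PRICKLE2, RSPO3, WNT2B and WNT11. RSPO3, a secreted enhancer of WNT signalling, was at 71.6, 36.8 and 44.5 in WT with at most 1 read in an F2 library, at least 15.6-fold lower. WNT2B, a WNT ligand, was at 7594, 7090 and 7590 in WT and 2483, 2261 and 2443 in F2, a log2 change of -1.63 ± 0.09. The 2 PRICKLE paralogs thus went opposite ways, to 3513 ± 155 and to 0 reads. The median log2 change of the 48 genes was 0.08 and ran from -0.007 to 0.117 over the processing alternatives, so its sign was not fixed. With a mean of at least 50 the list had 2 falls.

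Axon guidance genes moved in both directions, and the calls among neural adhesion genes were falls. Of 55 tested guidance genes, out of 77 listed, NAV2 and EPHA3 rose, and PLXNA2, NRP1, EFNB2 and SEMA4G fell. NRP1, a co-receptor for semaphorins and VEGF, was at 78.6, 45.2 and 42.6 in WT and 13.3, 12.4 and 7.28 in F2, a log2 change of -2.22 ± 0.23. SEMA4G, a semaphorin, was at 4721, 5020 and 5198 in WT and 2259, 2396 and 2382 in F2, a log2 change of -1.09 ± 0.08. Among neural adhesion genes 19 of 71 listed were tested, and 5 fell and 0 rose: PTGFRN, FLRT2, CDH4, L1CAM and CDH23. L1CAM, a neuronal adhesion molecule, was at 7521, 7694 and 7155 in WT and 2432, 2749 and 2530 in F2, a log2 change of -1.54 ± 0.10. CDH4, the retinal cadherin, was at 5636, 5400 and 5515 in WT and 1582, 1706 and 1672 in F2, a log2 change of -1.74 ± 0.10. FLRT2, a transmembrane guidance and adhesion protein, was at 49.8, 39.6 and 38.8 in WT and 2.05, 1.04 and 4.85 in F2. FLRT2 and PTGFRN, the latter with 0 reads in F2, entered the test only through WT. For all of these the F2 libraries were below the WT libraries. Median log2 changes were -0.11 for guidance and -0.12 for neural adhesion, so most tested members fell short of the fold limit. The neural adhesion median ran from -0.388 to -0.041 over the processing alternatives. At an adjusted p under 0.05 with no fold limit, 17 guidance genes were lower and 8 higher. By the same rule 8 neural adhesion genes were lower and 4 higher, against 12.3% lower and 8.69% higher of all tested genes. Among all tested genes falls also outnumbered rises, 245 (1.62%) to 127 (0.839%). With a mean of at least 50, guidance had 2 rises and 1 fall and neural adhesion 2 falls. With a mean of at least 1, and also with no filter, neural adhesion had 8 falls. Without WT replicate 2 guidance had 1 rise, and without F2 replicate 1 neural adhesion had 1 rise.

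Extracellular matrix genes showed 6 falls and 2 rises among 44 tested of 75 listed. Beside this list and the collagens below, 1.62% of all tested genes fell and 0.839% rose. SPARC, a collagen-binding matricellular protein, was at 525.8, 517.4 and 477.9 in WT and 101.4, 110.0 and 103.1 in F2, a log2 change of -2.26 ± 0.07. LAMB1, the laminin beta 1 chain, was at 79.5, 33.0 and 71.0 in WT and 7.17, 2.08 and 2.43 in F2, a log2 change of -3.72 ± 0.33. HMCN1, FBLN5, THBS1 and LAMA4 completed the falls. The rises were ITGA4, the integrin alpha 4 subunit, at 148.5, 193.2 and 135.3 in WT and 538.9, 419.1 and 483.0 in F2, and LAMA3, the laminin alpha 3 chain. Collagen genes had 2 falls and no rise among 20 tested of 44 listed, namely COL1A2 and COL5A3. COL5A3 was at 175.6, 114.0 and 89.9 in WT and 16.4, 26.97 and 16.99 in F2. COL1A1, the partner chain of COL1A2 and looked up for that reason, had a log2 difference of 0.16 ± 0.14 with an adjusted p of 0.44 and did not pass the test. The 2 chains of type I collagen therefore differed in whether the test called them.

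TGF-beta and BMP pathway genes moved in both directions, with 4 rises and 4 falls among 42 tested of 63 listed. Of all tested genes 0.839% rose and 1.62% fell. ID4, an inhibitor of bHLH transcription factors and a BMP target, was at 6.11, 1.89 and 14.2 in WT and 48.1, 55.0 and 49.8 in F2, a log2 change of 2.94 ± 0.36. LTBP1, which anchors latent TGF-beta in the matrix, was at 2049, 1985 and 1916 in WT and 6177, 6287 and 5535 in F2, a log2 change of 1.59 ± 0.07. LTBP2, a matrix protein of the same family, went the other way, from 31557, 32429 and 32714 to 12292, 12739 and 13174, a log2 change of -1.34 ± 0.08. BMP7, a BMP ligand needed for kidney development, was at 71.6, 71.6 and 66.2 in WT and 3.07, 3.11 and 6.07 in F2, a log2 change of -3.85 ± 0.24. FSTL1 and SMAD9 also rose and BMP6 and TGFB2 also fell. TGFB2 was the weakest of these calls, with an adjusted p of 0.036. With a mean of at least 50 the list had 3 rises and 1 fall, and edgeR and DESeq2 each called 3 falls. Receptor tyrosine kinases gave 1 rise (NTRK3, log2 change 1.18) and 1 fall (ERBB4) among 23 tested of 36 listed. Kidney transcription factors gave 1 fall (TWIST1, -1.24) among 15 of 38. Calls this few are not read as results about either list.

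Cell cycle genes were slightly higher in F2, but none reached the fold limit, and those given as examples were picked after their values were seen. Of 45 G2/M genes 44 had a positive log2 difference, with a median of 0.32. At an adjusted p under 0.05 with no fold limit 30 were higher and none lower. Of all 15130 tested genes 7343 had a positive difference, and 8.69% were higher and 12.3% lower by this rule. CDC25B, a phosphatase that activates CDK1, was at 920.6, 972.6 and 920.8 in WT and 1467, 1538 and 1422 in F2, a log2 difference of 0.65 ± 0.10. TOP2A, which untangles DNA before mitosis, was at 21157, 20551 and 18966 in WT and 29322, 25998 and 24947 in F2, a log2 difference of 0.40 ± 0.09. Both genes had F2 libraries wholly above WT. Of 54 G1/S and E2F target genes 21 were higher and 1 lower by the same rule, with a median of 0.16. PRIM1, the catalytic subunit of DNA primase, was at 794.8, 807.7 and 763.7 in WT and 1591, 1446 and 1387 in F2, a log2 difference of 0.90 ± 0.09, the largest of the list. CDT1, which loads the replicative helicase, had a log2 difference of 0.80 ± 0.16. CDC25A, the G1/S phosphatase, was the member that was lower, by -0.36 ± 0.08. CCNE2, RRM2 and CDC6, known E2F targets, had log2 differences of -0.02, -0.11 and -0.07 and did not pass. Medians ran from 0.29 to 0.35 for G2/M and from 0.12 to 0.20 for G1/S over the processing alternatives, scalings included.

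**Figure D3:**
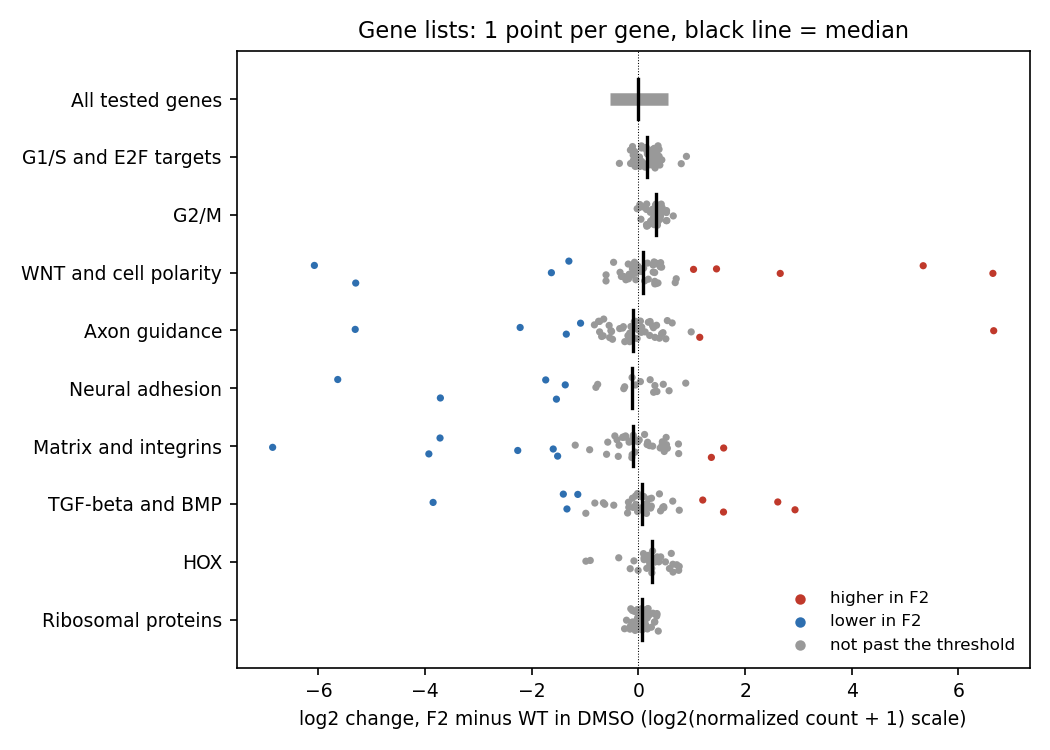
Log2 change of F2 against WT with DMSO (x axis) for the tested members of 9 gene lists, 1 point per gene, with rises in red, falls in blue and genes not past the threshold in grey. Black lines are medians, and the grey bar for all tested genes spans the central 90% of genes. The G2/M list is shifted right as a narrow group with a median of 0.32, whereas the WNT and guidance lists hold single genes far out on either side and the adhesion and matrix lists mainly on the left.

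Chromatin, cell death and immune gene lists gave few calls, beside 2.46% of all tested genes called in either direction. Of 12 PRC2 genes JARID2, an accessory subunit that helps recruit the complex, rose from 94.3, 100.8 and 111.7 to 217.2, 237.6 and 199.0, a log2 change of 1.08 ± 0.11. EZH2 had a log2 difference of 0.37 ± 0.07 with an adjusted p of 0.00069, under the fold limit, and SUZ12 of -0.03. Of 14 tested BCL2 family genes BMF, a BH3-only promoter of apoptosis, rose from 181.7, 175.3 and 180.7 to 368.8, 390.0 and 410.1. Genes of these lists that did not pass the threshold are named after their values were seen. None of 24 tested SWI/SNF genes, 27 p53 targets or 14 CDK inhibitors and G1 cyclins passed the threshold. Without the fold limit CDKN2A, the INK4A and ARF tumour suppressor locus, was higher (log2 difference 0.66 ± 0.09) and CCND1, cyclin D1, was lower (-0.43 ± 0.06). Antigen presentation (22 tested), interferon-induced (28), HOX (31), imprinted (24), cancer-testis (5) and ribosomal protein genes (78) had 0 calls, with medians from -0.12 to 0.30. HOX genes were higher without the fold limit in 14 and lower in 3 of 31 cases, against 8.69% and 12.3% of all tested genes. Numbered zinc finger genes fell in 7 and rose in 2 of 416 tested, shares near the background of 1.62% and 0.839%. The single call among clustered protocadherins, PCDHGB1, is uncertain because that family shares exons.

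Of the tested markers of epithelial, muscle, neuronal and fibroblast cells, 1 in each list fell and none rose. Of all tested genes 1.62% fell and 0.839% rose, and single calls in lists this small are not read as results about them. A positive log2 difference was found in 2 of 6 tested epithelial markers and in 1 tested marker of each other list. The summed epithelial markers were 39368 to 43972 in WT and 22240 to 24487 in F2, and KRT18, a keratin of simple epithelia, fell from 18872, 18650 and 16685 to 9794, 9093 and 8218, a log2 change of -1.001 at the fold limit. It was 1 of 6 tested. KRT19, KRT7, CLDN3 and GRHL2 from the same list of 12 had 0 reads in all 6 libraries. Neuronal markers summed to 5446 to 6193 in WT and 2913 to 3801 in F2, and INA, the neurofilament protein internexin, had a log2 change of -3.25 ± 0.14, the only call among 5 tested. Of the 15 neuronal markers 7 had 0 reads, DCX and STMN2 among them. Muscle markers summed to 13868 to 14680 in WT and 11801 to 13373 in F2, with TAGLN the only call among 6 tested and MYOD1 at 0 reads. Fibroblast markers summed to 73075 to 80162 in WT and 64574 to 71306 in F2, with COL1A2 the only call among 8 tested. In each of these 4 lists the summed level in F2 lay below that in WT without overlap. Such a sum is weighted toward abundant members, KRT18 among the epithelial ones. In bulk RNA fewer cells with a marker and less of its RNA per cell cannot be told apart.

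A small share of the changed genes lay next to another that changed the same way. In the RefSeq gene order, which matched 13089 of the 15130 tested genes (86.5%), no run of 3 neighbouring tested genes changed in 1 direction. Runs of 2 numbered 17, of which 12 were falls and 5 rises, and held 34 of the 314 changed genes that matched. How many such pairs would lie together by position alone was not tested. They included TAGLN2 with DUSP23, CCR1 with the chemokine receptor-like gene CCRL2, CLDN1 with CLDN16, ZNF732 with ZNF141 and L1CAM with AVPR2. The median log2 change per chromosome ran from -0.065 to 0.062 over 23 chromosomes. PRICKLE1 and TMEM117 lie near each other on chromosome 12. The 3 tested genes between them had log2 differences of 0.01 to 0.27 and none passed the threshold.

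The E1 clone, given the same DMSO treatment, mostly differed from F2 at the 24 named rises and falls. The F2 and E1 libraries were compared directly in the same model, and 22 of the 24 passed the threshold. Over all tested genes 6.7% did so (3.6% higher in F2, 3.1% lower), but the 24 were chosen for extreme values in the same F2 libraries, which favours such a difference. PRICKLE1 (3799 ± 472 in E1, SD, n = 3) and TMEM117 (238.6 ± 31.7) were the exceptions, with F2 minus E1 of -0.11 (adjusted p 0.45) and 0.01 (adjusted p 0.96). NAV2, in contrast, was at 7.51 ± 4.35 in E1, FSTL1 at 44.7 ± 8.8 and FRZB at 2.56 ± 1.52, all below F2. FAM129A was at 1702 ± 175 in E1, above F2. Of the 12 falls 8 were lower in F2 than in E1 and 4 higher. HMCN1 was at 7493 ± 1923 in E1 and RNF182 at 1674 ± 198, whereas both were at the floor in F2. ERBB4, PCDH17, ADCYAP1 and LIN28B were lower still in E1, at 0.32, 7.23, 0 and 1.57. Against WT, E1 passed the threshold in the direction of F2 for the rises PRICKLE1, TMEM117 and FAM129A. It did so too for the falls TAGLN2, ERBB4, FBLN5, PCDH17, ADCYAP1 and LIN28B. In the opposite direction it passed for NAV2, NFIB, OGFRL1, CLDN1, FRZB, FSTL1, OSTN, HMCN1, RNF182, MBP and COL1A2. KIF26B, SRCRB4D, ZNF502 and CCR1 did not pass in E1. Both clones were set against the same WT libraries, which favours a shared direction.

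In separate libraries of the same lines given tazemetostat, 200 of the 372 genes that differed with DMSO (53.8%) were called in the same direction. The share was 44.3% (262 of 592) when genes with a mean of at least 1 were tested and 41.0% (247 of 603) with no filter. Of the 127 risen genes 70 (55.1%) were higher in F2 than in WT under tazemetostat and 6 were lower, against 6.75% of all tested genes called higher. Of the 245 fallen genes 130 (53.1%) were lower and 8 higher, against 3.87% called lower. These 70 and 130 genes made up 6.86% of the 1021 higher and 22.2% of the 585 lower calls under tazemetostat. Median log2 differences there were 1.06 and -1.07. The E1 clone against WT under tazemetostat, a comparison that shares no library with F2 and WT in DMSO, had 24 of the 127 higher and 21 lower, and 84 of the 245 lower and 25 higher. Its background was 4.66% higher and 4.59% lower.

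Among the 24 named genes the gap between the lines was mostly smaller under tazemetostat. The change in the gap, the F2 minus WT difference with tazemetostat minus that with DMSO, passed the threshold toward 0 in 20 of the 24 (11 rises and 9 falls) and away from 0 in none. Over all tested genes 3.83% had a change in the gap past the threshold upward and 1.84% downward, and genes chosen for a large gap in 1 treatment tend to show a smaller one elsewhere. NAV2 was at 12244, 11837 and 13104 in WT with tazemetostat and 11130, 11893 and 11830 in F2, a log2 difference of -0.09 ± 0.26. Under the drug the WT and F2 libraries overlapped for this gene, and both were above either DMSO group. OGFRL1 was at 15010, 14711 and 13599 in WT and 11474, 11390 and 11983 in F2, also above both DMSO groups. KIF26B was at 586.3, 506.0 and 651.5 in WT and 359.2, 387.6 and 369.1 in F2, so the order of the lines was opposite to that with DMSO, at a log2 difference of -0.64 ± 0.17 (adjusted p 0.0038). PRICKLE1 stayed apart, at 332.1, 318.9 and 369.4 in WT and 2531, 2466 and 2632 in F2, a log2 difference of 2.90 ± 0.10. OSTN was at 36.5, 39.3 and 38.2 in WT and 487.4, 428.9 and 478.2 in F2. Its gap of 3.58 ± 0.25 was the largest of the 12 rises under the drug.

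Several fallen genes had far more transcript in F2 with tazemetostat than with DMSO. RNF182 was at 751.9, 654.7 and 668.7 in WT and 465.1, 371.4 and 415.3 in F2 with tazemetostat, a log2 difference of -0.73 ± 0.21. TAGLN2 was at 6867, 6731 and 6218 in WT and 3379, 3298 and 3431 in F2, against single digits in F2 with DMSO. MBP was at 2846, 2902 and 2805 in WT and 1128, 1098 and 1247 in F2. For RNF182, TAGLN2 and MBP the F2 libraries remained below WT. FBLN5 kept a wide gap, at 1836, 1706 and 1670 in WT and 303.9, 266.5 and 246.0 in F2, a log2 difference of -2.67 ± 0.13. PCDH17 was at 53.2, 45.8 and 36.9 in WT and 0, 0 and 3.70 in F2. ZNF502 was at 111.4, 135.6 and 117.0 in WT and again had 0 reads in F2. The cell cycle lists were further apart under the drug. There 36 of 54 G1/S genes and 37 of 45 G2/M genes were higher in F2 past the threshold and none lower. Of all tested genes 6.75% were higher and 3.87% lower under the drug. TOP2A was then at 6582, 6868 and 5757 in WT and 22089, 22558 and 22212 in F2, and its gap changed by 1.40 ± 0.13.

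**Figure D4:**
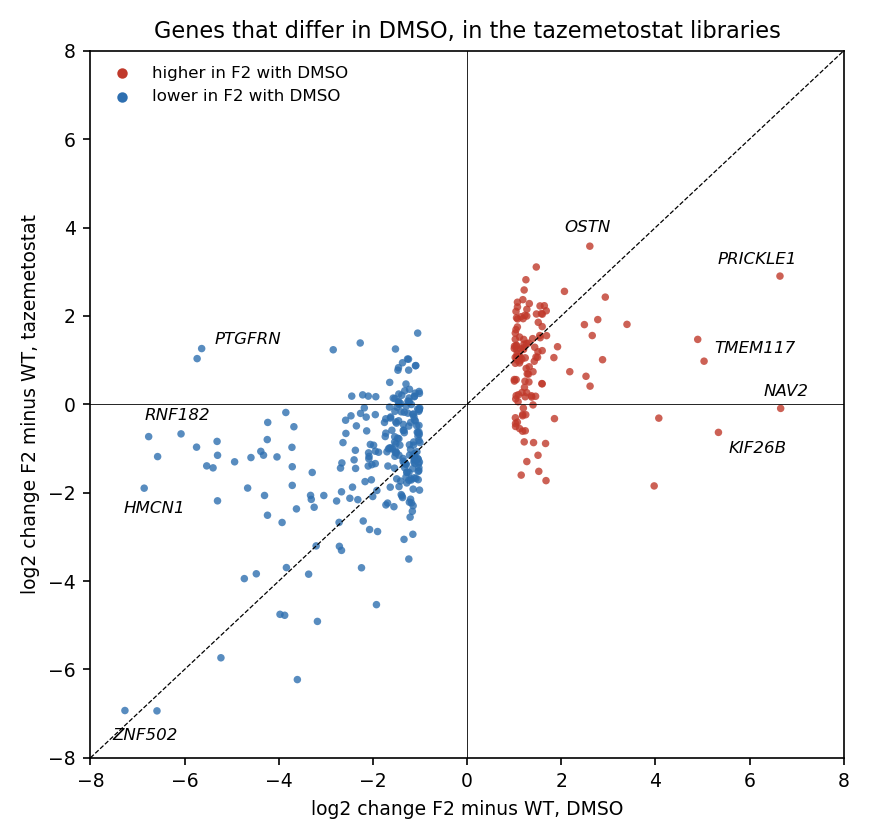
Log2 change of F2 against WT with DMSO (x axis) and with tazemetostat (y axis) for the 372 genes that changed with DMSO, with rises in red and falls in blue. The dashed line marks equal differences and no points lie near 0 on the x axis because of the fold limit. NAV2 lies near 0 on the y axis at -0.09, ZNF502 near the dashed line at -6.93, and PTGFRN above 0 at 1.26.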

How the data were processed

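Poly(A) RNA was sequenced with a stranded kit, per the labels' protocols. The submitters' processing notes name Trim Galore 0.4.4, STAR 2.6.0a, HTSeq, DESeq2 and hg19; whether counting used strand was not given in the sources used here, so genes and antisense partners may share reads. The deposited signal values are read counts per gene that the authors scaled by each library's size factor. Multiplied by that factor, 100% of values were whole reads within a relative tolerance of 1e-06. Groups and replicate numbers came from sample titles. limma 3.58.1 (R 4.3.3; lmFit, eBayes with trend) was run on log2(value + 1) of all 18 libraries with 6 group means and no block, and Benjamini-Hochberg adjustment covered 15130 genes. The log2(value + 1) scale understates changes of low genes. The threshold was a log2 change of 1 or more in size with an adjusted p below 0.05. The text names the RB and E2F list, the 12 largest rises and 12 largest falls with a mean of at least 50, groups that do not overlap and symbols that are not clone-based, and list members past the threshold. The comparison, the members and the lists were chosen with earlier results of these data known. Deviations of same-numbered F2 and WT libraries from their group means correlated at 0.23, 0.10 and 0.48, each over 0.1, so the numbers in the titles were taken to pair libraries. The main fit and the permutation did not use this pairing. Alternatives were a replicate block, other pseudocounts, filters, scalings and fits, leaving out each library, and edgeR 4.0.16 and DESeq2 1.42.0 on the recovered reads. Thinning to equal depth and leaving out replicate 3 of both groups were chosen after seeing the data. On simulated counts for this comparison (15130 genes) the fit called 55% of genes changed 2-fold and 99% of those changed 4-fold, with 1 false call. A 2-fold change lies on the fold limit itself, so many such genes miss it. Of these genes 91% passed the adjusted p alone. Floors cover counting error only. Promoter sequences came from a RefSeq table (GRCh38.p14) by symbol. A comparison of promoters between changed and other genes is void, since 59.1% of risen, 63.3% of fallen and 67.7% of all tested genes matched, under the 80% needed. Figures were drawn with matplotlib 3.10.9.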

Additional observations from a re-analysis of the deposited data

Results flagged for a closer look

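The F2 minus WT difference changed between DMSO and tazemetostat, by limma's test of that change (adjusted p under 0.05 and at least 1 on the log2 scale), in 148 of the 372 genes that rose or fell with DMSO. Among the named rises the change was -6.75 for NAV2, -5.97 for KIF26B, -4.39 for OGFRL1, -4.06 for TMEM117, -3.74 for PRICKLE1, -3.43 for NFIB, -2.20 for FSTL1, -1.89 for FAM129A, -1.87 for CLDN1, -1.59 for SRCRB4D and -1.10 for FRZB. Among the named falls it was 6.03 for RNF182, 4.96 for HMCN1, 4.78 for TAGLN2, 3.96 for CCR1, 3.64 for MBP, 1.73 for ERBB4, 1.26 for LIN28B, 1.25 for FBLN5 and 1.16 for COL1A2. The values for RNF182 and HMCN1 depend on the 1 added before the log, because F2 was at the floor with DMSO. All 20 were toward a smaller gap, and all 20 genes had been chosen for a large gap with DMSO.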

How the results depend on the processing

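RB1 stayed between -1.73 and -1.65 over 21 alternatives. Of 504 values of the 24 named genes under these alternatives 501 kept direction and side of the threshold, none reversed, and the 3 that lost the threshold were all of ADCYAP1 (DESeq2 adjusted p 0.105 besides the 2 left-out libraries). The counts depended most on the filter and the fold limit, through the number of genes admitted. With a mean of at least 1, 405 genes fell and 165 were called the same way in E1 under tazemetostat, against 108 as reported. With a mean of at least 50, 61 rose, 118 fell, 104 were called the same way in F2 under tazemetostat, against 200 as reported, and 52 in E1. With no filter 192 rose and 411 fell. Without the fold limit 1315 rose, 1862 fell, and 2355 and 1741 were called the same way. Leaving out 1 library, or replicate 3 of both groups, gave 100 to 154 rises, 232 to 274 falls, RB1 values of -1.728 to -1.646, 177 to 220 and 99 to 113 genes called the same way in F2 and E1 under tazemetostat, 22 named genes that differed from E1 in each case, and 19 to 20 whose gap changed. With the replicate number as a block, which follows the pairing of libraries, 126 rose and 244 fell, 99.2% of the 372 calls were shared, and it changed no other count by over 1.5 times. edgeR called 152 and 242, DESeq2 121 and 247. Other scalings moved the median of all genes by under 0.1. Depth limits genes near the floor: a fall to at most 3 reads is known only as a lower bound.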

Other observations

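Among the abundant genes, 9 past the threshold had a mean of at least 8000 in F2 or WT, a selection made after the values were seen. EMP1, an epithelial membrane protein gene, was at 135484, 136288 and 121880 in WT and 64615, 61867 and 54393 in F2, a log2 change of -1.12 ± 0.09. IDH1, the cytosolic NADP-dependent isocitrate dehydrogenase, was at 12933, 13714 and 11035 in WT and 4472, 4491 and 3853 in F2, a log2 change of -1.55 ± 0.10, with 16812 ± 1413 (SD, n = 3) in E1. PLAU, the urokinase plasminogen activator, was at 16224, 16877 and 14179 in WT and 7512, 6843 and 6457 in F2, with a log2 difference of -0.005 under tazemetostat. In all 3 genes the groups did not overlap. AHNAK2, ARMC9, KRT18, LTBP2 and PPP1R3B also fell, with log2 changes of -1.34 to -1.001. PSG9, a pregnancy-specific glycoprotein, was the only rise among the 9, from 8008, 7412 and 7783 to 20045, 20945 and 19935. It belongs to a family of near-identical copies, so its reads may be shared with paralogs.

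Of the 23 genes at the floor in F2, some were at the floor in the E1 clone with DMSO and others were not. In E1, 9 of them had 3 reads or fewer in every library too and 11 exceeded 3 reads in every library. Named after their values were seen, IGFBP3, a carrier of insulin-like growth factors, was at 119.7, 35.8 and 36.0 in WT, had at most 3 reads in an F2 library and at most 1 in an E1 library with DMSO, and reached 5019 ± 230 in F2 with tazemetostat, against 11455 ± 383 in WT. MDFIC was at 84.4 ± 5.3 in WT with at most 1 read in F2 or E1 libraries, and at 488.3 ± 11.9 in F2 with tazemetostat, above the 238.2 ± 12.2 of WT.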
